A study of Mus musculus with 2 samples.

Results

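The 6 transcription factor genes Sox2, Sox4, Sox9, Sox11, Sox15 and Onecut2 were followed in single cells of mouse urothelial organoids. All 6 of the listed symbols were found among the 31053 genes counted in both libraries, and none was lost to a filter on low values. Sox11 and Onecut2 were selected because they were among the leading genes of the differentiated library, so their difference between the libraries is given as a description. The organoids were grown from bladder urothelial cells of wild-type C57BL/6 mice aged 8 to 10 weeks, and the cells were not sorted before droplet capture. Both kinds of organoid spent a first week in complete medium with WNT3A, RSPO1, EGF, Noggin and the TGF-β receptor inhibitor LY2157299. They then spent a second week either in the same medium (proliferative organoids, NMU-O-P, P) or in a medium lacking these 5 factors (differentiated organoids, NMU-O-D, D). Each condition is 1 library, so the values of P and D carry no check between replicates, and every interval below is a 95% interval that covers counting error only.

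SOX proteins are transcription factors that bind the minor groove of DNA through an HMG box and bend it, and they fall into subgroups by the sequence of that box. Sox2 belongs to SoxB1 and maintains progenitor cells in many epithelia, Sox4 and Sox11 are SoxC proteins of immature and migrating cells, Sox9 is a SoxE protein of cartilage and of several epithelial progenitor pools, and Sox15 is the SoxG protein and is close to Sox2 in its DNA binding. Onecut2 carries 1 cut domain and a homeodomain and is known from the liver, the pancreas and neurons. In the urothelium, basal cells next to the basement membrane renew the tissue, and luminal cells make the uroplakin plaques of the urinary barrier.

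The P library held 8194 barcodes and the D library 6975. Cells with more than 800 genes and at most 12% mitochondrial UMIs were kept, where a UMI stands for 1 captured mRNA molecule. This left 6818 cells and 26681469 UMIs in P and 4896 cells and 20305621 UMIs in D, with medians of 3405.5 and 3227.5 UMIs per cell. The libraries shared 10 barcodes, which held 0 UMIs of Sox11 and 1 of Onecut2. All 5 uroplakin genes were at least 2-fold higher in D, where their summed level was 1245 CPM (counts per 1000000 UMIs) against 20.5 in P, and all 12 proliferation genes were lower there by 2-fold or more. The basal keratin gene Krt5 was at 3534 CPM in P and 3954 CPM in D, as a check of the tissue named in the labels. A list of 7 genes induced by tissue dissociation and stress (Fos, Jun, Junb, Egr1, Atf3, Hspa1a, Hspa1b) summed to 1009 CPM in P and 2138 CPM in D. Without the 3482 P and 3712 D cells that held a UMI of Fos, Egr1 or Atf3, the log2 ratio of D over P was 1.82 for Sox4 and 2.05 for Sox9, beside the values given below for all cells.

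On GRCm38, Sox4 lies on the minus strand of chromosome 13 (28948919 to 28953713) and Sox11 on the minus strand of chromosome 12 (27334264 to 27342574). Their promoter windows are shown because they are the SoxC pair and because both had their highest level in the same D cluster. Each window is taken from RefSeq (GRCm38.p6) and reads 5′ to 3′ on the strand of the gene. It runs from 250 bases before the RefSeq start to 50 bases after it. The gene positions above come from GENCODE, whose starts differ from these, and the Sox11 window lies wholly before the GENCODE start. Capitals mark CCAAT on either strand (ATTGG on the strand printed), the box bound by the factor NF-Y.

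Sox4, chr13:28953650-28953949: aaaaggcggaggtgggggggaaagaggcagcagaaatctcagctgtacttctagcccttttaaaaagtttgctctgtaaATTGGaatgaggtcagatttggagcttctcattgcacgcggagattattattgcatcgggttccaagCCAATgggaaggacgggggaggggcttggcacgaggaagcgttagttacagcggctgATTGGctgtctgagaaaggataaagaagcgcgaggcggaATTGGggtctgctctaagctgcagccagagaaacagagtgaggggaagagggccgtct

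Sox11, chr12:27342669-27342968: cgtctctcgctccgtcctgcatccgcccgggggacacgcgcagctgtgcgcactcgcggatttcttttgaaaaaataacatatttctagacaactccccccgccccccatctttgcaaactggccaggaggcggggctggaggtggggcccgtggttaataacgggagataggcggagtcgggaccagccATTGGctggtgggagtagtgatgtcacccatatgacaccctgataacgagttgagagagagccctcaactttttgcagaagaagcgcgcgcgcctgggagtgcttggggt

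The Sox4 window held 4 such boxes and the Sox11 window 1, and 37.4% of the 32851 mouse windows of this length held at least 1. The Sox11 box began 60 bases before the RefSeq start and the Sox4 boxes began 171, 104, 47 and 8 bases before theirs. The last of these Sox4 boxes lies inside the GENCODE position of the gene. Neither window held TATAAA on either strand, which 13.6% of windows did, or ACAAAG, a core that SOX proteins bind, which 18.7% of windows did. The G and C content was 52.0% for Sox4 and 58.7% for Sox11, beside a median of 52.7% over all windows. RefSeq windows matched 4 of the 6 genes, and those of Sox2 and Sox15 were not printed.

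The SoxC pair was higher in D organoids, by very different folds. Sox4 counted 2340 UMIs in P and 6857 in D, or 87.7 CPM (84.2 to 91.3) and 337.7 CPM (329.7 to 345.8), a log2 ratio of D over P of 1.95 (1.88 to 2.01). Sox11 counted 2 UMIs in P, in 2 cells, and 556 UMIs in D, or 0.0750 CPM (0.00908 to 0.271) and 27.4 CPM (25.2 to 29.8). Its log2 ratio was 8.51 (6.65 to 11.56), the fourth largest toward D of the 10719 genes whose UMIs over both libraries reached 100, which is what it was selected for. Sox4 was thus well detected in both libraries, whereas Sox11 was near the limit of detection in P.

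Sox9, the SoxE gene (chr11:112782224-112787760, plus strand), followed Sox4. It counted 588 UMIs in P and 1489 in D, or 22.0 CPM (20.3 to 23.9) and 73.3 CPM (69.7 to 77.2), a log2 ratio of 1.73 (1.60 to 1.87). Onecut2 (chr18:64340020-64400987, plus strand) counted 2 UMIs in P and 268 in D, or 0.0750 CPM (0.00908 to 0.271) and 13.2 CPM (11.7 to 14.9). Its log2 ratio of 7.46 (5.59 to 10.51) ranked eighth toward D, again as its selection implies.

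Sox2 and Sox15 differed between the libraries by less than 2-fold. Sox2 (chr3:34650405-34652461, plus strand) counted 1276 UMIs in P and 1315 in D, or 47.8 CPM (45.2 to 50.5) and 64.8 CPM (61.3 to 68.4), a log2 ratio of 0.44 (0.33 to 0.55). Sox15 (chr11:69655314-69656727, plus strand) counted 482 UMIs in P and 285 in D, or 18.1 CPM (16.5 to 19.7) and 14.0 CPM (12.5 to 15.8), a log2 ratio of −0.36 (−0.58 to −0.15). Sox2 overlaps the long non-coding gene Sox2ot on the same strand, Sox15 overlaps Mpdu1 on the opposite strand and Sox4 overlaps the predicted gene Gm26735 on the opposite strand. Reads of the opposite-strand pairs cannot be told apart without the strand setting of the counting, which is not given in the sources used here, and no strand setting separates the Sox2 pair.

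**Figure D1:**
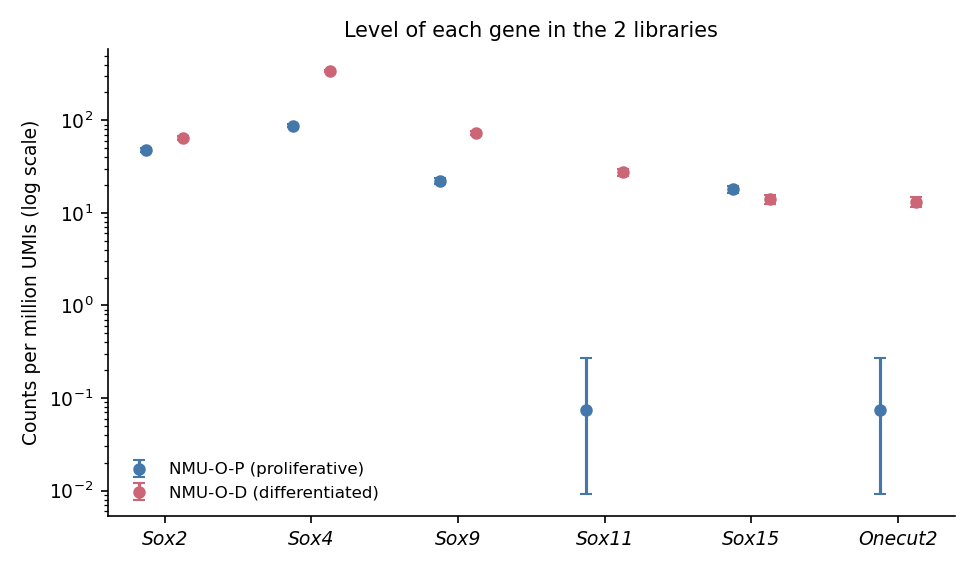
Level of each of the 6 genes in CPM, on a log axis, in the P library (blue) and the D library (red), with bars for the exact Poisson 95% interval of the counts. Sox11 and Onecut2 sit at 0.0750 CPM in P from 2 UMIs each, while Sox15 is the 1 gene whose D point lies below its P point.

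Of the 10719 genes, a 2-fold or larger excess in D was seen for 1442 (13.5%) and in P for 507 (4.73%). Of the 6 genes here, 4 had such an excess in D, of which Sox11 and Onecut2 by selection, 0 had it in P and 2 had neither. Over the 8939 genes that reached 100 UMIs in both P and D, the log2 ratio had a median of 0.42, so the typical gene was itself higher in CPM in D. Relative to that median, the log2 ratios were 1.52 for Sox4, 1.31 for Sox9, 8.09 for Sox11, 7.04 for Onecut2, 0.02 for Sox2 and −0.79 for Sox15. On this scale 605 genes had the 2-fold excess in D and 927 in P, and Sox2 no longer stood above the typical gene.

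The share of cells that carried each gene was measured after every cell was thinned to 2100 UMIs, which left out 180 shallower cells of P and 479 of D. Sox4 was detected in 1097 of 6638 P cells, or 16.5% (15.6 to 17.4), and in 1930 of 4417 D cells, or 43.7% (42.2 to 45.2). Without thinning the shares were 26.8% and 60.9%. Cells with at least 2 Sox4 UMIs made up 1.97% of P and 16.2% of D, so the share with several molecules was also larger in D.

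Sox9 was detected in 4.37% (3.89 to 4.89) of thinned P cells and 12.7% (11.7 to 13.7) of thinned D cells. Sox11 was detected in 2 P cells, or 0.0301%, and in 210 D cells, or 4.75% (4.15 to 5.42). Onecut2 was detected in 1 P cell, or 0.0151%, and in 93 D cells, or 2.11% (1.70 to 2.57). These are shares of cells with a UMI at this depth, not of cells expressing the gene. The highest count in any thinned D cell was 6 UMIs for Sox11 and 7 for Onecut2. Sox2 was detected in 9.67% (8.97 to 10.4) of P and 12.3% (11.3 to 13.3) of D cells, and Sox15 in 3.96% (3.51 to 4.46) of P and 2.85% (2.38 to 3.39) of D cells. Unthinned shares in P and D were 15.8% and 21.5% for Sox2, 7.10% and 21.5% for Sox9, 0.0293% and 7.70% for Sox11, 6.79% and 5.60% for Sox15, and 0.0293% and 3.88% for Onecut2. No cell type known to lack Sox2, Sox4, Sox9 or Sox15 was present, so the share that free RNA gives was not measured for these 4 genes. It was not measured for Sox11 or Onecut2 either, whose low counts in P come from a separate library.

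Each library was then clustered on its own with the 6 genes removed from the clustering features, so that they could not define the clusters. P gave 4 clusters and D gave 3. P0 (2583 cells) was led by Htra1, Col18a1 and Gpnmb and also by the basal genes Krt14, Itgb4 and Col17a1. P1 (2546 cells) was led by Psca, Nccrp1, Mal and Flg, P2 (1351 cells) by Jag1, Ifitm1, Dapl1 and Atp1b3, and P3 (338 cells) by the mitotic genes Cenpf, Nusap1, Hmmr and Ccnb1. D0 (2878 cells) was led by Cyp2f2, D1 (1310 cells) by Htra1, Sparc, Ncam1 and Wnt10a, and D2 (708 cells) by the uroplakin gene Upk3a with Phgr1, Slc4a4 and Upk1b. The 7 basal markers summed to 16863 CPM in D1 against 6943 in D0 and 3165 in D2. They summed to 8494 CPM in P0 and 7383 in P3 against 4474 in P1 and 5583 in P2. D1, P0 and P3, whose basal sum exceeded that of their library, are called basal-high below, a description set after the data were seen. Of the 7 markers, 6 were higher in D1 than in the rest of D, and 5 in P0 and 6 in P3 than in the rest of P. Krt5 was lower in P0 and P3 together (3211 CPM) than in P1 and P2 (3710), and Cd44 was lower in D1 (71.2) than in the other D clusters (112.4).

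Sox11 was concentrated in D1. It stood at 97.6 CPM (88.2 to 107.6) there, at 11.0 (9.21 to 12.9) in D0 and at 4.84 (2.82 to 7.75) in D2, and D1 held 400 of its 556 UMIs. After thinning, 15.1% (13.0 to 17.4) of D1 cells carried it, against 1.86% of D0 and 0.579% of D2 cells. In P it was at 0 UMIs in P0 and P1 and at 1 UMI in each of P2 and P3. The median depth was 2672 UMIs in D1, 3283.5 in D0 and 4161 in D2, so the cluster with the most Sox11 was the shallowest of the 3.

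Onecut2 had the opposite distribution. It stood at 21.6 CPM (17.0 to 27.1) in D2 and 15.1 (13.1 to 17.4) in D0, and D1 held 0 of its 268 UMIs, which allows up to 0.732 CPM. After thinning, 4.49% (3.07 to 6.31) of D2 cells, 2.30% (1.77 to 2.94) of D0 cells and 0 of 1034 D1 cells carried it, which allows a share of cells with a UMI of up to 0.290% and does not limit the share that express it. Both limits take 3 counts as the floor, and the level of the other D cells was 22.6-fold above the D1 limit. The exact intervals allowed up to 0.900 CPM in D1 and a log2 ratio of D1 over the other D cells of −4.19 or lower. In P, Onecut2 had 1 UMI in each of P0 and P1.

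Sox4 and Sox9 also had their highest level in D1. Sox4 was at 591.3 CPM (568.0 to 615.3) in D1, 285.8 in D2 and 270.2 in D0, and at 133.4 in P3, 114.5 in P0, 88.4 in P2 and 65.2 in P1. All 3 D clusters stood above all 4 P clusters, and D2 and D0 did not differ beyond counting error, nor did P3 and P0. Sox9 was at 137.1 CPM (126.0 to 148.9) in D1, 92.8 (83.0 to 103.4) in D2 and 47.4 (43.6 to 51.3) in D0, and at 39.7 in P3, 35.0 in P0, 16.0 in P1 and 10.5 in P2. Unlike Sox4, Sox9 separated D2 from D0, and its D0 level did not differ from P3 beyond counting error.

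Sox2 and Sox15 ordered the clusters along the basal markers more than by library. Sox2 was at 95.9 CPM in D1, 78.7 in P3, 70.6 in P0 and 64.8 in D0, neighbours that did not differ beyond counting error, and then at 42.9 in P2, 31.7 in P1 and 28.5 in D2. Sox15 was at 26.3 CPM in D1, 24.0 in P0, 22.1 in P3 and 21.3 in P2, again without a difference between neighbours, at 12.9 in D0 and 12.7 in P1, and at 3.70 (1.97 to 6.33) in D2. Sox15 was lowest in D2, the cluster with the most uroplakin, while for Sox2 the levels of D2 and P1 did not differ beyond counting error.

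**Figure D2:**
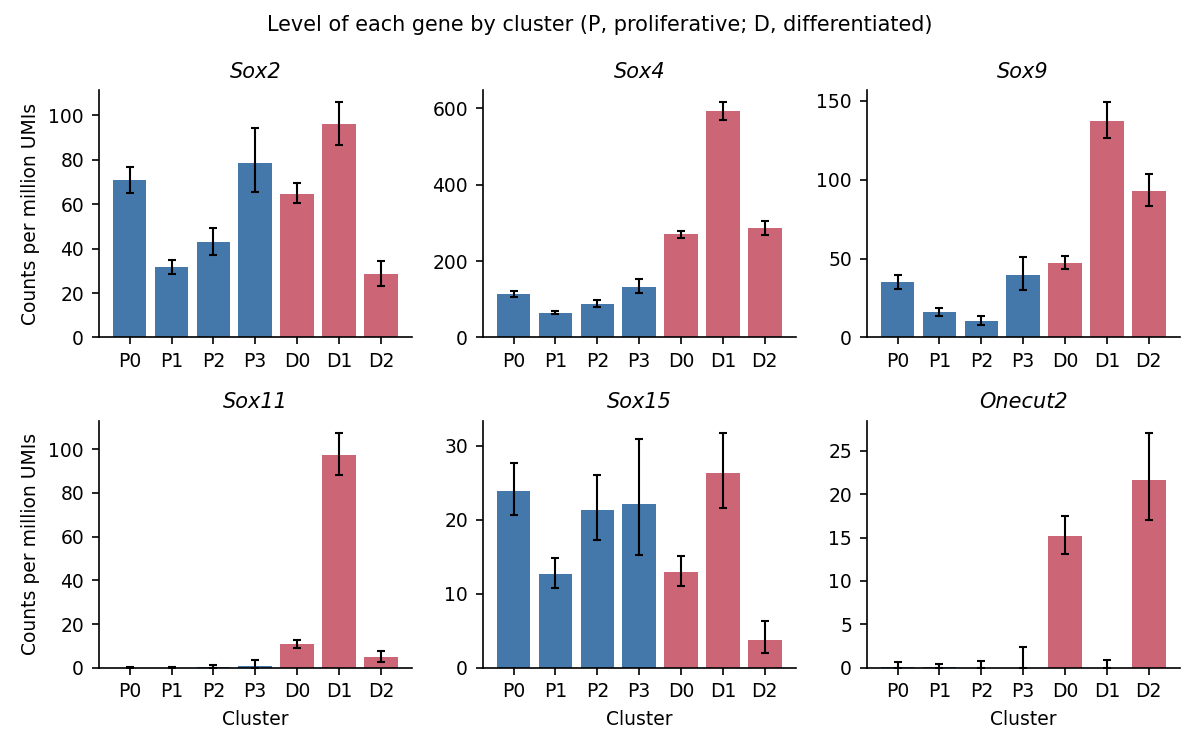
Level of each gene in CPM in the 4 P clusters (blue) and 3 D clusters (red), with exact Poisson 95% intervals, 1 panel per gene and each axis starting at 0. D1 has the highest bar for all 5 Sox genes, though its interval overlaps that of P3 for Sox2 and those of P0, P2 and P3 for Sox15, while Onecut2 is at 0 in D1 and at 21.6 CPM in D2.

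Taken over the basal-high clusters against the rest of each library, the 4 Sox genes counted in both libraries were higher on the basal-high side of both. In P the log2 ratios were 1.05 (0.89 to 1.22) for Sox2, 0.72 (0.60 to 0.84) for Sox4, 1.30 (1.06 to 1.54) for Sox9 and 0.66 (0.39 to 0.92) for Sox15. In D they were 0.75 (0.58 to 0.92), 1.11 (1.04 to 1.18), 1.26 (1.11 to 1.41) and 1.27 (0.91 to 1.62), and Sox11 had 3.34 (3.07 to 3.62). The split was made from other genes of the same cells, so these are descriptions of where the genes were found. The ratio of the typical gene across this split was not measured, so the values are not relative to it.

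Comparing D1 with P0 and P3 together, Sox4 had a log2 ratio of D over P of 2.33 (2.23 to 2.43), Sox9 of 1.94 (1.74 to 2.14), Sox2 of 0.41 (0.23 to 0.60) and Sox15 of 0.15 (−0.19 to 0.49). Sox11 counted 400 UMIs in D1 and 1 UMI in P0 and P3. Comparing D0 and D2 with P1 and P2, the log2 ratios were 1.94 (1.85 to 2.03) for Sox4, 1.98 (1.77 to 2.18) for Sox9, 0.72 (0.57 to 0.87) for Sox2 and −0.46 (−0.74 to −0.18) for Sox15. Onecut2 counted 268 UMIs in D0 and D2 and 1 UMI in P1 and P2. In CPM, the higher Sox4 and Sox9 of D was thus present in both kinds of cluster. The lower Sox15 of D was present in D0 and D2 and not detectable in D1. The D1 interval of Sox15 held both 0 and 0.42, the log2 ratio of the median gene over all cells.

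The uroplakins Upk1a, Upk1b, Upk2, Upk3a and Upk3b gave a second ordering of the D cells that did not depend on clusters. In the thinned D cells, Sox11 was at 48.3 CPM (41.9 to 55.3) in the 2051 cells with no uroplakin UMI, 25.5 in the 804 cells with 1, 6.78 in the 913 cells with 2 to 4, 3.67 in the 389 cells with 5 to 9, and at 0 UMIs in the 260 cells with 10 or more. Onecut2 went from 3.71 CPM (2.12 to 6.03) with no uroplakin UMI to 14.2 with 1, 17.2 with 2 to 4 and 37.9 (25.8 to 53.9) with 5 to 9, and was at 11.0 (4.03 to 23.9) with 10 or more. Sox11 was thus lower in each following bin, though the last 3 overlapped within counting error. Onecut2 was highest in cells with 5 to 9 uroplakin UMIs and lower again, beyond counting error, in those with 10 or more, where it counted 6 UMIs.

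Sox2 went from 80.3 CPM (72.1 to 89.3) with no uroplakin UMI to 25.6 (14.0 to 43.0) with 10 or more, Sox15 from 19.7 (15.8 to 24.4) to 3.66 (0.444 to 13.2) and Sox4 from 399.1 (380.5 to 418.4) to 227.1 (188.9 to 270.8). Sox9 was at 85.0 CPM (76.5 to 94.1), 62.8, 53.7 (43.8 to 65.2), 58.8 and 80.6 (58.6 to 108.2) over the same 5 bins, so its ends did not differ beyond counting error and its middle was lower than its first bin. Over all D cells without thinning, Onecut2 was at 17.6 CPM in the 2849 uroplakin-positive cells and 3.07 CPM in the 2047 negative ones, a log2 ratio of 2.52 (1.85 to 3.28). The 5 Sox genes went the other way, with log2 ratios of −1.91 (−2.16 to −1.66) for Sox11, −1.42 (−1.77 to −1.08) for Sox15, −0.62 (−0.78 to −0.46) for Sox2, −0.58 (−0.65 to −0.51) for Sox4 and −0.55 (−0.70 to −0.40) for Sox9. The ratio of the typical gene between uroplakin-positive and negative cells was not measured.

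**Figure D3:**
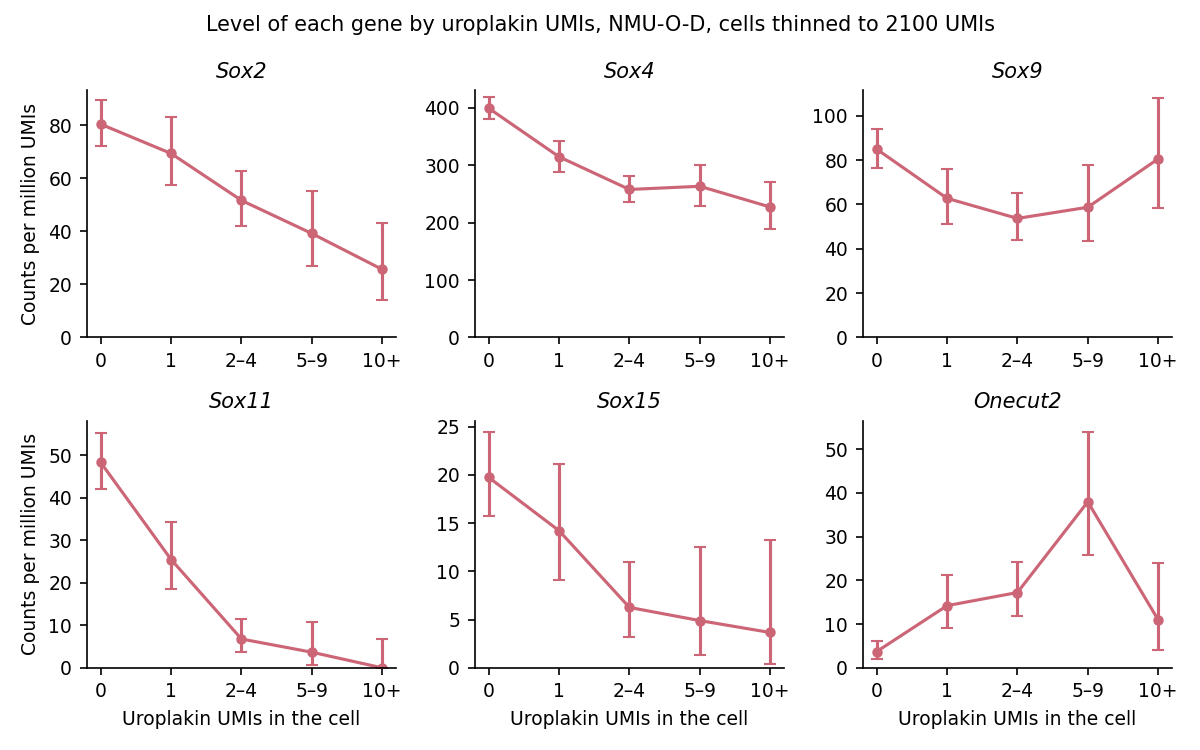
Level of each gene in CPM in D cells thinned to 2100 UMIs, by the number of uroplakin UMIs in the cell, with exact Poisson 95% intervals and each axis starting at 0. Sox11 goes from 48.3 CPM to 0, Onecut2 is highest at 37.9 CPM in cells with 5 to 9 uroplakin UMIs, and Sox9 is lowest at 53.7 CPM in the middle bin.

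In P, only 303 cells carried a uroplakin UMI. There Sox2 had a log2 ratio of positive over negative cells of −0.57 (−0.99 to −0.18) and Sox15 of −0.79 (−1.56 to −0.11), while the intervals of Sox4 (−0.52 to 0.01) and Sox9 (−0.38 to 0.59) held 0. With cells thinned to 2100 UMIs the ratio of Sox9 turned from 0.12 to −1.51, from 3 UMIs in positive cells, and that of Sox15 was −1.83, from 2. With at least 2 uroplakin UMIs the ratio of Sox2 was −1.17 and that of Sox4 was 0.05.

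Cells with at least 2 of 12 proliferation genes numbered 402 in P and 17 in D. In P, Sox9 was at 42.7 CPM in these cycling cells and 20.5 CPM in the others, a log2 ratio of 1.06 (0.71 to 1.40), with 0.65 (0.39 to 0.91) for Sox2, 0.56 (0.36 to 0.75) for Sox4 and 0.36 (−0.13 to 0.81) for Sox15. In D, with 17 such cells, no difference of any of the 6 genes was detectable. Without the cycling cells the D over P log2 ratio was 1.84 for Sox9 and 1.99 for Sox4, within the intervals of all cells.

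Joint detection was counted in single D cells. Of the 210 thinned cells with Sox11, 140 (66.7%) also carried Sox4, against 91.8 cells if the genes were unrelated, and 44 carried Sox9 against 26.7. Within D1 the Sox4 and Sox11 pair was found in 114 cells against 100.5, and outside D1 in 26 against 20.2, so the larger share of the excess lay between clusters. Sox11 and Onecut2 were found together in 1 cell against 4.42, and Sox15 and Onecut2 in 0 cells against 2.65. Outside D1 the count of cells with both Sox11 and Onecut2 was 1 against 1.48.

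Cells carrying Sox11 in D were rich in basal markers. The basal list summed to 14626 CPM in them against 8424 in the other D cells, the luminal list to 193 against 1156 and the proliferation list to 116 against 17.1, and 74.3% of them lay in D1 against 20.9% of the others. D1 as a whole, without thinning, had 16863, 67.8 and 98.5 CPM of these lists. As a group, part of which lay outside D1, the carriers were thus not more basal than D1. Carriers within D1 were not compared with the other D1 cells. The neuronal or neuroendocrine list, which holds the adhesion gene Ncam1, summed to 175 CPM against 43.4. Chga, Syp, Elavl4 and Insm1 were at 0 in these cells. In all of D, Chga, Elavl4 and Insm1 had 0 UMIs and Syp had 6, so these zeros do not set the carriers apart. The fibroblast list summed to 211 CPM against 62.8, with Pdgfra at 0, and over the D library 1234 UMIs of that list were Dcn, 10 Col1a1 and 19 Col3a1. D1 as a whole had 190 CPM of the neuronal or neuroendocrine list and 232 of the fibroblast list, so the carriers exceeded D1 in neither. All 4 smooth muscle and all 4 glial markers were at 0. These lists held only 4 and 77 UMIs in all of D, too few to tell the carriers from other cells. In the 1028 D cells holding a UMI of Ncam1 or Dcn, Sox11 was at 75.9 CPM (67.9 to 84.6), and in the other 3868 D cells at 14.2 CPM (12.4 to 16.2), which held 227 of its 556 UMIs.

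Cells carrying Onecut2 in D had the converse profile. Their luminal list summed to 1792 CPM against 1095 in the other D cells, their intermediate list to 12361 against 9616 and their basal list to 3615 against 8828. All 12 proliferation genes were at 0 in the 93 thinned carriers, against 22.2 CPM in the other D cells. The log2 ratio had an upper limit of only −0.22, so a level slightly below that of the other cells is not excluded. Chga, Syp, Elavl4 and Insm1 were also at 0, but all of D held just 6 UMIs of Syp and 0 of the others. Carriers of Sox2, Sox4, Sox9 and Sox15 in D also had more basal marker UMIs than the remaining cells, with sums of 10224, 9782, 10108 and 12449 CPM against 8508, 7893, 8516 and 8609.

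Pearson correlation over the log-transformed levels of the 4417 thinned D cells named the genes distributed most like each of the 6, among 7819 others with at least 200 UMIs. Cells of 1 library share its depth and its free RNA, so these values are descriptions. For Sox11 they were the basal keratin Krt14 (0.21), the matrix gene Sparc (0.20), Sema3d (0.20), Htra1 (0.19) and Timp3 (0.19). For Sox4 they were Tpm1 (0.22), Krt14 (0.21), Col17a1 (0.19), Timp3 (0.18) and Ctsl (0.17), and for Sox9 S100a10, Tpm1, Htra1, Thbs1 and Actn1 (0.12 to 0.14). Values for the others were weak, from 0.066 to 0.095, with Upk1a, Nupr1, Rdh10, Krt18 and Akr1b3 for Onecut2, Dst, Ltbp4, Col17a1, Krt14 and Fgfr2 for Sox2, and Borcs5, Krt14, Lmo1, Dpm1 and Cc2d1b for Sox15. In the 6638 thinned P cells, against 7764 other genes, no value exceeded 0.11 and Krt14 was among the 5 nearest genes of Sox2, Sox4, Sox9 and Sox15. The other named P genes were Krt15, Mt2, Bcam and Hsp90ab1 for Sox2, Tmem176b, Mt2, Bcam and Col17a1 for Sox4, Slpi, S100a10, Sncg and Tmem176a for Sox9, and Orc6, Scmh1, Mt2 and U2af2 for Sox15.

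The 20 genes of the SOX family list placed these values among their relatives. Of them, 15 were detected, 10 had at least 20 UMIs over both libraries, and 3 of these (Sox4, Sox9 and, by selection, Sox11) had the 2-fold excess in D and 1 (Sox7) in P, beside 13.5% and 4.73% of all genes. Sox7, a SoxF gene of endothelium and early endoderm, counted 427 UMIs in P and 121 in D, a log2 ratio of −1.43 (−1.73 to −1.13), with almost equal levels in basal-high and other clusters of D (6.10 and 5.92 CPM). Sox12, the remaining SoxC gene, went against Sox4 and Sox11, from 202 UMIs (P) to 103 (D), a log2 ratio of −0.58 (−0.93 to −0.23), though it too was higher in D1 (13.9 CPM) than in the other D clusters (2.84 CPM). Sox6, a SoxD gene, had a log2 ratio of 0.13 (−0.07 to 0.33), or −0.29 relative to the median gene, and was higher on the basal-high side, with 58.3 CPM in D1 against 8.02 and 35.6 CPM in P0 and P3 against 6.26. Sox13 had 0.22 (−0.22 to 0.65) and Sox21 0.38 (0.18 to 0.59). The neural crest gene Sox10 was at 0 in both libraries.

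The CUT family list of 7 genes held Onecut2 and its relatives. Onecut1 counted 5 UMIs in P and 2 in D, and Onecut3 counted 2 and 4, so Onecut2 was the ONECUT gene of the D library. Cux1 was at 74.1 CPM in P and 131.2 CPM in D, a log2 ratio of 0.82 (0.74 to 0.91), without reaching 2-fold. Satb1, a chromatin organiser, counted 2 UMIs in P and 29 in D, a log2 ratio of 4.25 (2.27 to 7.36), and 20 of the 29 lay in D1.

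**Figure D4:**
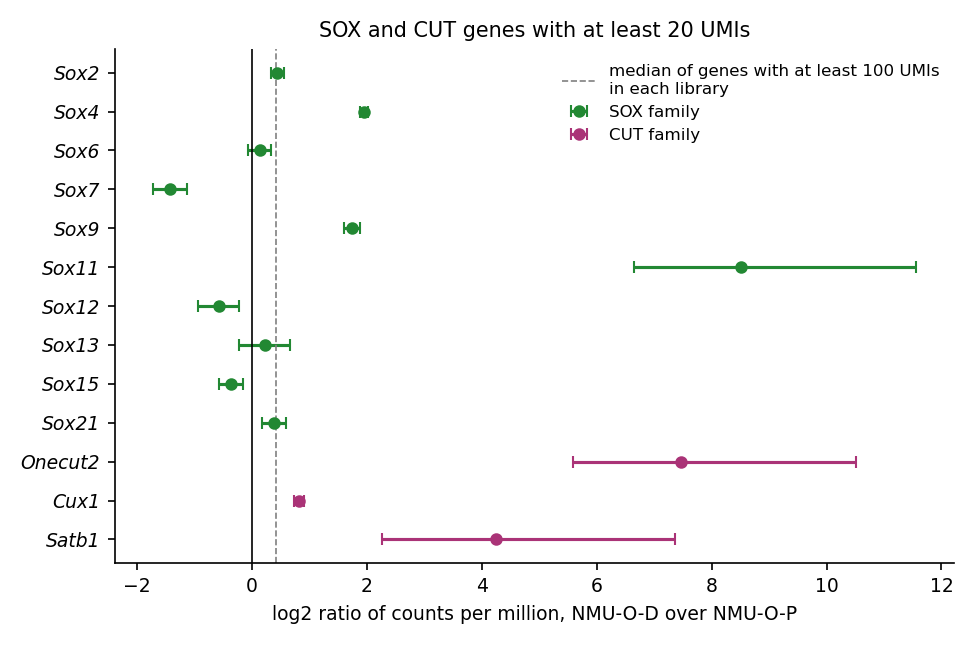
The log2 ratio of CPM, D over P, for the 10 SOX (green) and 3 CUT (purple) genes shown, each with at least 20 UMIs, with exact conditional binomial 95% intervals and a dashed line at 0.42, the median of 8939 genes. Sox11, Onecut2 and Satb1 lie far to the right from 2 P UMIs each, while Sox7 at −1.43 lies farthest to the left.

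Genes known as targets or partners of these factors were mixed. Of 5 SoxC targets, 3 had at least 20 UMIs. Sema3c, a secreted guidance factor, went from 37.5 to 184.2 CPM with a log2 ratio of 2.30 (2.20 to 2.40) and stood at 437 CPM in D1 against 120 in the other D clusters. The Polycomb gene Ezh2 (0.02, −0.14 to 0.18) and Tead2 (0.46, −0.16 to 1.08) had intervals that held 0. Relative to the median gene, Ezh2 was at −0.40 and Tead2 at 0.03. The neuronal targets Tubb3 and Dcx counted 1 UMI in each library. The 8 cartilage targets of Sox9 summed to 0.974 CPM in P and 1.28 CPM in D, with Col2a1 at 12 and 13 UMIs and Col11a2 at 14 and 9.

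Among the Onecut targets, Mitf counted 27 UMIs in P and 34 in D, a log2 ratio of 0.73 (−0.05 to 1.51). Foxa2 had 1 UMI in P and 0 in D, and G6pc and Slc2a2 were at 0. Among the partners of Sox2 and Sox15, Trp63, the master regulator of basal cells, was at 149.2 CPM in P and 77.8 CPM in D, a log2 ratio of −0.94 (−1.03 to −0.86), and it too was higher on the basal-high side, with 152.9 CPM in D1 against 58.7 in the other D clusters. Pou5f1 (0.54, −0.00 to 1.08), Pou3f1 (−0.72, −1.62 to 0.12) and Fhl3 (−0.19, −0.62 to 0.23) had intervals that held 0. Relative to the median gene they were at 0.12, −1.14 and −0.61.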

How the data were processed

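Droplet libraries (10x Genomics) of P and D organoids were demultiplexed with bcl2fastq 2.19.0 and counted with Cell Ranger 3.0.2 on GRCm38 (mm10), per the submitters' processing notes. The authors deposited whole-number UMI counts per gene and cell, without normalization. Cells with more than 800 genes and at most 12% mitochondrial UMIs were kept, as in the study. Counts of kept cells were summed per library or cluster and given as CPM (counts per 1000000 UMIs), with exact Poisson intervals. Ratios had exact conditional binomial intervals and shares exact Clopper-Pearson intervals, all at 95%. PCR duplicates were collapsed by UMI, but intervals and floors (3 counts) still cover counting error only. Totals were 26681469 UMIs in P and 20305621 in D. With 1 library per condition no test was run.

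Clusters were made per library with Seurat 5.3.0 (R 4.3.3, 2000 variable features without the 6 genes, which left 1998 in P and 1995 in D, 25 components in P and 21 in D, resolution 0.2). Leading genes are those with the largest ratio over the rest of the library among genes in at least 25% of the cluster, and those named are from the first 10. Scrublet (scanpy 1.11.5) marked 0 cells as doublets in either library and so did not work here, and leaving out the 5% of cells with the highest scores took its place. Gene positions came from GENCODE M21, in which 30934 of the 31053 genes were placed. The intervals were tested on counts simulated with Poisson error alone, which hold no spread between cells or cultures. Thinning was checked on real D cells.

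The 6 genes, the gene lists and the alternatives were chosen with earlier results of these data known. Named genes are the 6, the SOX, CUT, target and partner genes with at least 20 UMIs, the 5 nearest genes by correlation and the leading genes of clusters. Named genes below that limit were singled out after their values were seen. A planned comparison of protein sequences was not run, and a few genes of the lists are not reported here.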

Additional observations from a re-analysis of the deposited data

Results flagged for a closer look

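Barcodes that the filter left out, 1376 in P and 2079 in D, were used in no comparison above. In those of D, 4 genes stood above the left-out P barcodes beyond counting error, per 1000000 non-mitochondrial UMIs. Sox4 was at 362.5 (337.0 to 389.3) against 110.9 (96.8 to 126.6), and Sox9 at 82.5 (70.6 to 95.9) against 18.6 (13.1 to 25.6). Sox11 was at 52.6 (43.2 to 63.5) from 109 UMIs, against 1 UMI in P. Onecut2 was at 18.8 (13.4 to 25.7) from 39 UMIs, against 0 UMIs in P. For the remaining genes, Sox15 was lower in the left-out D barcodes, at 6.27 (3.34 to 10.7) against 22.6 (16.5 to 30.2), and Sox2 was at 61.8 (51.5 to 73.5) against 66.8 (55.9 to 79.1). The kept D cells had 363.6 for Sox4, 79.0 for Sox9, 29.5 for Sox11 and 14.2 for Onecut2 on the same scale, so the left-out D barcodes held a higher level of Sox11 than the kept ones. In D, 1906 barcodes were above the mitochondrial limit, and 476 in P.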

How the results depend on the processing

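The D over P log2 ratio kept its sign under every alternative that gave a value for Sox2, Sox4, Sox9, Sox11 and Onecut2, and under each but 1 for Sox15. The ranges were 0.016 to 0.72, 1.52 to 2.33, 1.31 to 2.05, 7.38 to 9.84 and 7.04 to 8.19, and −0.79 to 0.15 for Sox15. Of 76 values, 57 lay within the counting interval of the reported one. Scaling by the median gene gave 0.016 for Sox2, 1.52 for Sox4, 1.31 for Sox9 and −0.79 for Sox15. Leaving out mitochondrial and ribosomal protein genes gave 0.10, 1.61, 1.40 and −0.70. The following were chosen after seeing the data. Leaving out cells with a UMI of Ncam1 or Dcn gave 0.29, 1.70, 1.52 and −0.67. Leaving out cells with a UMI of Fos, Egr1 or Atf3, which were 3482 P and 3712 D cells, gave 1.82 for Sox4 and 2.05 for Sox9, and no value for Sox11, whose 2 P cells were removed. Basal-high clusters alone gave 2.33 for Sox4, 1.94 for Sox9 and 0.15 for Sox15, and no value for Onecut2. The remaining clusters gave 0.72 for Sox2 and 1.98 for Sox9. A split of both libraries by uroplakin was not among these alternatives. In CPM, Sox15 was higher in D among uroplakin-negative cells, with a log2 ratio of 0.42 (0.15 to 0.69). The median gene over all cells also had 0.42, so Sox15 did not stand above it there. A median within these cells was not measured. Among uroplakin-positive cells its ratio was −0.21 (−0.93 to 0.59). The lower Sox15 of D was thus not seen in CPM within uroplakin-negative cells, while the remaining genes were higher in D in both groups.

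The count of genes at least 2-fold higher in D was 605 with median scaling and 688 without mitochondrial and ribosomal protein genes, against 1442. That in P was 927 with median scaling and 889 with a minimum of 20 UMIs, against 507. Shares of cells moved with the thinning depth in 30 of 36 values, and with a minimum of 2 UMIs in 12 of 12. Within-library ratios moved in 11 of 57 values, and 6 values, all of ratios whose interval held 0, had the other sign. At resolution 0.4 a second D cluster, with Onecut2 at 2.20 CPM, counted as basal-high. With 1 library per condition, the spread between organoid cultures is unknown, and genes with 2 UMIs in P have wide intervals.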

Other observations

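A finer clustering of D (resolution 0.4, 5 clusters) separated a group of 724 cells led by S100g, Dapl1, Hk2, Notch1 and Fosb, with a basal sum of 12266 CPM, from the rest of D0. In it Sox11 was at 23.3 CPM, Sox15 at 25.1, Sox2 at 79.6 and Onecut2 at 2.20. The cluster led by Htra1, Sparc and Ncam1 had 97.6 CPM of Sox11 and 0 UMIs of Onecut2, and the cluster led by Upk3a, Phgr1 and Clu had 4.35 of Sox11 and 21.7 of Onecut2. The group led by Cyp2f2, Ctse and Gsdmc3 had 12.7 of Sox11 and 19.9 of Onecut2, and that led by Olfm4 and Cyp2f2 had 3.66 and 16.0.

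The 2 P cells with Sox11 held 2609 and 2754 UMIs in all, 1 in P3 and 1 in P2, and the 2 P cells with Onecut2 held 2887 and 10132 UMIs, 1 in P0 and 1 in P1. None of the 4 carried a uroplakin UMI or a barcode shared with D.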
